A study of Mus musculus with 18 samples.

Results

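The messenger RNA of 10 genes of the NF-kappaB pathway was measured in 18 tumors grown from K7M2 cells, a mouse osteosarcoma line derived from Balb/c mice. The genes were chosen by name, 10 of the 20878 genes in the expression matrix: the transcription factor subunits *Nfkb1*, *Nfkb2*, *Rela* and *Relb*, the feedback inhibitors *Nfkbia* and *Tnfaip3*, and the targets *Tnf*, *Il6*, *Icam1* and *Il1b*. K7M2 cells carrying a control shRNA (ATRX CT) or an shRNA against *Atrx* (ATRX KD) were grafted under the skin of female mice aged 6 to 8 weeks, 500000 cells per mouse. The hosts were immunocompetent Balb/c mice (Balb/cJ) or NSG mice (NOD.Cg-Prkdc scid Il2rg tm1Wjl/SzJ), which lack T, B and NK cells but keep myeloid cells. There were 4 Balb/c ATRX CT tumors (mice 41, 43, 44 and 45), 4 Balb/c ATRX KD tumors (mice 56, 58, 59 and 60), 5 NSG ATRX CT tumors (mice 1 to 5) and 5 NSG ATRX KD tumors (mice 26 to 30). All 4 groups came from the same cell line. Mice were caged by 5 with each cage given a single kind of cells, so that cage and graft cannot be told apart. The hosts also differed in strain, Balb/c being that of the K7M2 line, so strain and immune deficiency cannot be told apart either. Each tumor was sequenced in bulk, so RNA of tumor cells and of host cells was read together, and fewer cells of a type cannot be told apart from less RNA per cell.

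NF-kappaB is a family of dimeric transcription factors. In resting cells the dimers of p65, encoded by *Rela*, and p50, cut from the product of *Nfkb1*, are held in the cytoplasm by IkappaB alpha, encoded by *Nfkbia*; signals from TNF, interleukin-1 or Toll-like receptors lead to the degradation of this inhibitor, and the freed dimers enter the nucleus. A second, non-canonical branch turns the p100 product of *Nfkb2* into p52, the partner of RelB. Activity is controlled mainly at the level of the proteins, so RNA of the subunits is not a measure of activity, whereas several targets and inhibitors (*Nfkbia*, *Tnfaip3*, *Nfkb2*, *Relb*) are themselves induced by NF-kappaB. In tumors these genes are read both from cancer cells and from macrophages, neutrophils and endothelium.

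Values are given as FPKM, fragments scaled to the length of the transcript and to the size of the library, and differences as log2 fold changes of FPKM + 1, which understate the change of genes at low level such as *Il6*. From the steps between low values, each library held an estimated 14800000 to 24800000 fragments. The lowest member, *Il6*, then rested on about 20 to 78 fragments per tumor and *Tnf* on 115 to 200, whereas the lowest library value of every other member rested on about 182 fragments or more. Tumor labels were checked against marker genes. Summed T cell markers (9 genes) were at 31.2 to 51.2 FPKM in Balb/c ATRX CT and 29.3 to 48.4 FPKM in Balb/c ATRX KD tumors, against 1.56 to 7.31 and 2.69 to 5.05 FPKM in the NSG groups, where *Cd3g* and *Cd3e* respectively were at 0 in every tumor. B cell markers (7 genes) were low in both hosts and overlapped, summing to 6.97 to 10.9 FPKM in Balb/c and 3.98 to 10.8 FPKM in NSG tumors, and NK cell markers are given with *Icam1*. Markers of the osteoblast lineage were present (8 genes, summing to 321 to 801 FPKM), although *Bglap* was at 0 in all Balb/c ATRX CT tumors and *Ibsp* in all tumors of both ATRX KD groups. Macrophage markers (10 genes) summed to 1810 to 3890 FPKM over all tumors. Some tumors also held skeletal muscle RNA, with 8 markers at 165 and 363 FPKM in NSG mice 2 and 3 and at 170 and 511 FPKM in NSG mice 29 and 30, against 1.58 to 52.2 FPKM in the other tumors. Keratinocyte markers (9 genes) summed to 84.0 FPKM in Balb/c mouse 45 and 13.9 FPKM in Balb/c mouse 60, against 1.43 to 2.35 FPKM in the other Balb/c and 1.23 to 16.3 FPKM in the NSG tumors.

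*Atrx*, the gene targeted by the shRNA, was lower in most NSG ATRX KD tumors but passed the threshold in neither host. It was at 16.2, 11.6, 24.4, 15.1 and 20.5 FPKM in NSG ATRX CT and at 8.42, 16.4, 8.59, 8.88 and 8.59 FPKM in NSG ATRX KD tumors. The tumor of mouse 27 was within the range of the controls, and the other 4 ATRX KD tumors were below all of them. The log2 difference was -0.74 (SE 0.22, n = 5 and 5, adjusted p = 0.061 in limma; exact permutation test, two-sided p = 0.0317). In Balb/c mice, *Atrx* was at 13.4, 26.0, 10.3 and 20.7 FPKM in ATRX CT and at 21.5, 7.88, 9.11 and 17.3 FPKM in ATRX KD tumors, with overlapping groups (log2 difference -0.34, SE 0.36, n = 4 and 4, limma adjusted p = 0.9993). The *Atrx* transcript is 10244 nt long, and libraries differed in how their values rose with transcript length. In Balb/c mice 43, 45, 56 and 60, with the most *Atrx*, this slope was 0.14, 0.19, 0.21 and 0.12 log2 units per doubling of length. In Balb/c mice 41, 44, 58 and 59 it was -0.00, -0.10, -0.10 and -0.12. The part of this slope in single *Atrx* values was not tested. The authors reported loss of ATRX protein by western blot in the shRNA-carrying cell lines, K7M2 among them, whereas these values are RNA of whole tumors. The labels ATRX CT and ATRX KD are used below as given, and no direction for the Balb/c comparison can be drawn from the level of *Atrx*.

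Of the 10 members, 8 had at least 1 promoter window in the RefSeq sequences of GRCm38.p6 (250 bases before to 50 after a start site, 11 windows in all). *Nfkb1* and *Relb* had none. The kappaB decamer, the sequence that NF-kappaB dimers are known to bind, was searched by its consensus on both strands. It was found in windows of 4 of these 8 members, *Nfkb2*, *Nfkbia*, *Tnfaip3* and *Il6*, and not in those of *Rela*, *Tnf*, *Icam1* and *Il1b*. Over all promoters 8.5% of windows (2779 of 32851) and 9.6% of genes held it. A looser form of the decamer, which contains the first, was in 11.2% of windows and marked the same 4 members. The 250 bases before the start site are shown for 1 window of each of these 4 members, where the matches in that window lie, and for *Icam1*, the member with the clearest difference between hosts. Sequences run 5′ to 3′ on the gene's strand, and capitals mark the kappaB decamer.
*Nfkb2*, window 1 (chr19:46304487-46304736, plus strand): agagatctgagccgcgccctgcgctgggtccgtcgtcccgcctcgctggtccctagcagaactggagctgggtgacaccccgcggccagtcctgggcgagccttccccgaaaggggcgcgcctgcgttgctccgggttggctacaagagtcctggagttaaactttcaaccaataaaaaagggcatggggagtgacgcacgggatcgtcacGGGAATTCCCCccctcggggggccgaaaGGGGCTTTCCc
*Nfkbia* (chr12:55492648-55492897, minus strand): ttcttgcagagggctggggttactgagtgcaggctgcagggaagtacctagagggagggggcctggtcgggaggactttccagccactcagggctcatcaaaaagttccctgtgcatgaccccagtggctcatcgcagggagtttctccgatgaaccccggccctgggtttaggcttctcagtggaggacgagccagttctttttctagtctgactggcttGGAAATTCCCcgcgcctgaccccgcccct
*Tnfaip3*, window 1 (chr10:19015411-19015660, minus strand): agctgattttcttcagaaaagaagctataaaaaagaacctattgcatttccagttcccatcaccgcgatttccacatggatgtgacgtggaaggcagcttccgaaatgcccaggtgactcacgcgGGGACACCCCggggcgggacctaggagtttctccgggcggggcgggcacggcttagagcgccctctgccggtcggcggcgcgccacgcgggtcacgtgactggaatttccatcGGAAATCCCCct
*Il6* (chr5:30012864-30013113, plus strand): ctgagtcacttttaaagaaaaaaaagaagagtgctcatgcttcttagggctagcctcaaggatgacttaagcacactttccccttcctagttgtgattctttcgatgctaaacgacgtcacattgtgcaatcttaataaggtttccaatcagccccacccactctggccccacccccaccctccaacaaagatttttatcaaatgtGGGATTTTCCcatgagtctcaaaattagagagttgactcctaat
*Icam1* (chr9:21015690-21015939, plus strand): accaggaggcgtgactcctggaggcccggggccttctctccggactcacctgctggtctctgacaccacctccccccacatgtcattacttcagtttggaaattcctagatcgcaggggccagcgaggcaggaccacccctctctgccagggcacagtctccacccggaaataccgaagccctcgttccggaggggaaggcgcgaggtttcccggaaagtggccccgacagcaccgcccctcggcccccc
In window 1 of *Nfkb2*, 2 overlapping matches began at -39 and -38 and another at -11 from the start site, the last base before the start being -1. The match of *Nfkbia* began at -29, those of *Tnfaip3* at -125 and -12, and that of *Il6* at -44. Both further windows of *Nfkb2* held the decamer as well, 1 of these matches beginning after the start site, at +11, and the second window of *Tnfaip3* did not. Windows 2 and 3 of *Nfkb2* overlap, and the match at +11 in window 2 is the same site as that at -225 in window 3. A match is a description of the sequence, and a window without it says only that these letters are absent there.

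All members were detected in all 18 tumors and spanned a wide range of levels. Per unit of transcript length, the inhibitor *Nfkbia* and the non-canonical subunit *Nfkb2* stood highest, with means of 136 and 120 FPKM over the 18 tumors, and *Nfkbia* was above *Nfkb2* in 15 of 18. *Nfkb2* was above *Nfkb1* (mean 40.0 FPKM) in every tumor, with a ratio of 2.53 to 3.95. *Nfkb1*, *Rela* (38.3 FPKM), *Il1b* (28.5 FPKM) and *Relb* (24.9 FPKM) followed, and neighbours among them changed places between tumors, each being above the next in 11 or 12 of 18. *Relb* was above *Tnfaip3* (20.3 FPKM) in 16 of 18 tumors. The order of *Tnfaip3*, *Icam1* (10.7 FPKM), *Tnf* (5.03 FPKM) and *Il6* (2.15 FPKM) was the same in each of the 18 tumors. *Nfkbia* varied least, with a coefficient of variation of 8.5% over all tumors, and *Il1b* most, with 42.5%.

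**Figure D1:**
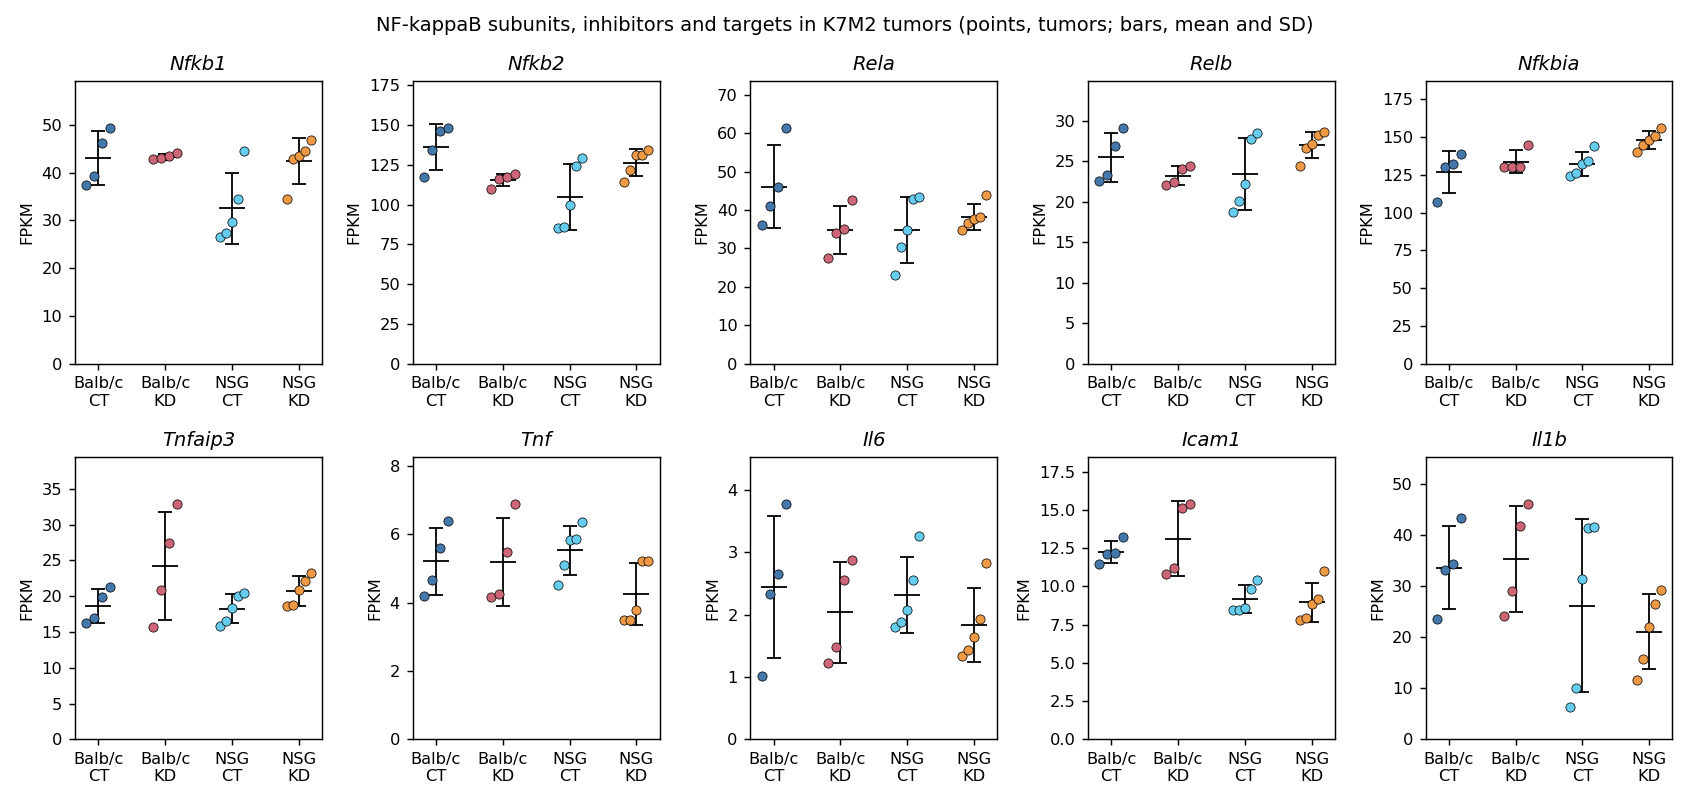
FPKM of the 10 members (vertical axes, from 0) in each tumor of the 4 groups (horizontal axes); points are tumors, and bars are the mean and SD of 4 or 5 tumors. *Icam1* lies lower in both NSG groups, the 5 NSG ATRX CT tumors spread from 6.40 to 41.6 FPKM in *Il1b*, and most other groups overlap.

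In the comparison of ATRX KD with ATRX CT tumors in Balb/c mice, no member passed the threshold, an adjusted p below 0.05 in limma over all genes tested. Over all genes 0.00680% (1 of 14701) passed. At an unadjusted p below 0.05 the counts were 0 of 10 members and 609 genes (4.14%). The median log2 fold change of the members was 0.0035 (range -0.39 to 0.32), beside -0.0032 over all genes. The groups overlapped for each of the 10 members, whereas they did not overlap for 3.18% of all genes. Mast cell markers (8 genes) summed to 181 to 432 FPKM in the ATRX CT and 45.3 to 113 FPKM in the ATRX KD tumors of this comparison.

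In NSG mice, where 6.78% of all genes (994 of 14654) passed for ATRX KD against ATRX CT, 0 of 10 members did. *Nfkb1*, *Nfkb2* and *Tnf* had an unadjusted p below 0.05, 3 of 10 members beside 26.3% of all genes. The 4 subunits and both inhibitors had positive log2 fold changes of 0.16 to 0.39, and the 4 targets negative ones of -0.33 to -0.03, that of *Icam1* turning to 0.06 with estimated library weights. The median over the 10 members was 0.16, beside -0.0014 over all genes. No member had groups without overlap, beside 7.50% of all genes. With estimated library weights and a robust prior in limma, changed together, 5 members (*Nfkb1*, *Nfkb2*, *Relb* and *Tnfaip3* higher, *Tnf* lower) and 5414 of all genes passed.

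Between hosts, NSG tumors were compared with Balb/c tumors within each graft. Among ATRX CT tumors 3.18% of all genes (472 of 14828) passed and 0 of 10 members did, with 3 of 10 members and 19.3% of genes at an unadjusted p below 0.05. The median log2 fold change was -0.25 over the members and -0.0084 over all genes. The groups did not overlap for 1 member, *Icam1*, and for 7.57% of all genes. With library weights and a robust prior 3 members (*Nfkb1*, *Nfkb2* and *Icam1*, lower in NSG) and 3290 of all genes passed. Among ATRX KD tumors 3.64% of all genes (534 of 14669) and 0 of 10 members passed, with 3 of 10 members and 16.4% of genes at an unadjusted p below 0.05. The median log2 fold change was -0.062 over the members and 0.016 over all genes. Here the groups did not overlap for *Relb* alone among the members, and for 8.13% of all genes. Both host comparisons were then averaged in a fit of all 4 groups, an analysis added after the data were seen. There 10.5% of all genes (1560 of 14803) passed, of which 1011 (6.83% of all genes) were lower in NSG, and 1 of 10 members passed, *Icam1*, lower in NSG.

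The difference of the ATRX KD effect between hosts (the log2 fold change in Balb/c minus that in NSG) passed for 0 members and for 0 of 14803 genes in limma, with 2 members and 1527 genes (10.3%) at an unadjusted p below 0.05. The 4 subunits had values of -0.55 to -0.34. With estimated library weights and a robust prior in limma, 4 members and 1985 genes passed.

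**Figure D2:**
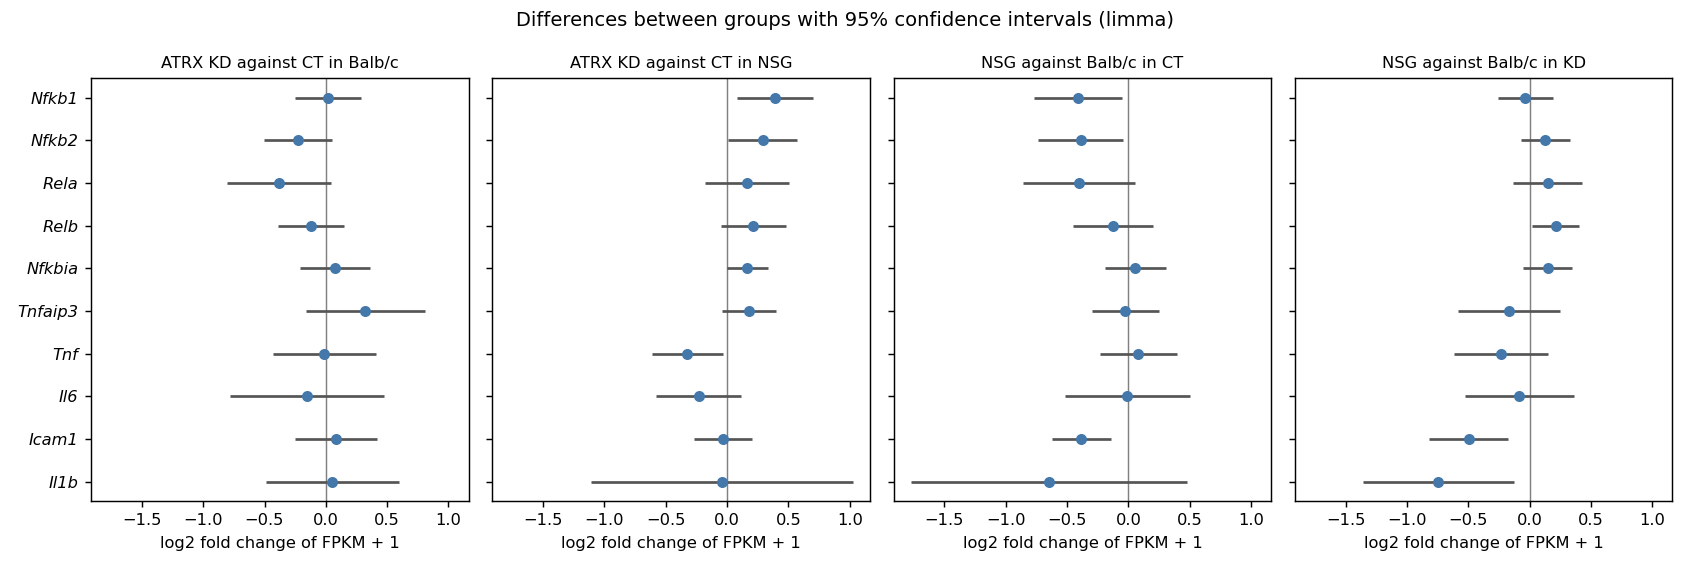
Log2 fold change of FPKM + 1 (horizontal axes) of the 10 members in the 4 comparisons; points are estimates and lines 95% confidence intervals from limma, not adjusted for the number of genes. The intervals of *Icam1* lie below 0 in both host comparisons, and that of *Il1b* in NSG mice is the widest for ATRX KD against ATRX CT.

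*Nfkb1* encodes p105, the precursor of p50 (chromosome 3, 135584655 to 135691547, minus strand, mm10, 25 exons). It was at 46.2, 49.3, 39.3 and 37.5 FPKM in Balb/c ATRX CT tumors and at 43.4, 42.8, 43.0 and 44.2 FPKM in Balb/c ATRX KD tumors. NSG tumors held 27.4, 34.4, 44.6, 26.5 and 29.7 FPKM with ATRX CT and 34.4, 42.8, 44.6, 43.4 and 46.9 FPKM with ATRX KD. NSG ATRX CT was the lowest group except for the tumor of mouse 3, which lay with the other groups, and 4 of its 5 tumors were below all Balb/c ATRX CT tumors. The log2 fold change for ATRX KD was 0.39 in NSG (95% confidence interval 0.08 to 0.70, limma adjusted p = 0.1079; exact permutation test, two-sided p = 0.0556) and 0.02 in Balb/c (-0.25 to 0.29). Between hosts it was -0.41 among ATRX CT tumors (-0.77 to -0.05, limma adjusted p = 0.2065) and -0.04 among ATRX KD tumors (-0.26 to 0.19). Without the tumor of NSG mouse 3, *Nfkb1* passed the threshold in NSG ATRX KD against ATRX CT (log2 fold change 0.51, limma adjusted p = 0.01777) and in NSG against Balb/c ATRX CT (-0.53, adjusted p = 0.04434). That tumor had 363 FPKM of summed muscle markers. NSG ATRX CT mouse 2 (165 FPKM) and NSG ATRX KD mice 29 and 30 (170 and 511 FPKM) had raised muscle markers too and were kept. Mouse 30 had the highest *Nfkb1* of the NSG tumors, 46.9 FPKM. The part of muscle RNA in the *Nfkb1* levels was not tested.

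*Nfkb2* encodes p100, the precursor of p52 (chromosome 19, 46304737 to 46312090, plus strand). Its levels were 134, 146, 117 and 148 FPKM in Balb/c ATRX CT and 110, 117, 116 and 119 FPKM in Balb/c ATRX KD tumors. They were 85.1, 124, 129, 85.7 and 99.9 FPKM in NSG ATRX CT and 114, 131, 131, 122 and 134 FPKM in NSG ATRX KD tumors. Within Balb/c the ATRX KD tumors sat at the lower end of the controls, and within NSG at the upper end, so the direction differed between hosts. For ATRX KD the log2 fold change was -0.23 in Balb/c (95% confidence interval -0.50 to 0.05) and 0.29 in NSG (0.01 to 0.57, limma adjusted p = 0.1809). Their difference was -0.52 (-0.89 to -0.15, limma adjusted p = 0.3632). It did not pass the threshold in limma except with library weights and a robust prior (log2 difference -0.65, adjusted p = 0.01403). Exact permutation of shRNA labels within hosts gave a two-sided p = 0.0051, not adjusted for the 10 members. This permutation assumes no ATRX KD effect in either host, so it cannot decide whether the effects differ between hosts. The gene overlaps *Psd* on the opposite strand, which was at 0.423 to 1.69 FPKM, and whether reads were counted by strand is not stated in the sources used here.

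*Rela* encodes p65 (chromosome 19, 5637490 to 5648130, plus strand). It was at 41.0, 45.9, 36.2 and 61.3 FPKM in Balb/c ATRX CT, 35.0, 34, 27.4 and 42.6 FPKM in Balb/c ATRX KD, 23.0, 43.3, 42.8, 30.3 and 34.7 FPKM in NSG ATRX CT and 37.7, 43.9, 34.9, 36.6 and 38.1 FPKM in NSG ATRX KD tumors. All groups overlapped, with the highest tumor that of Balb/c mouse 45. ATRX KD gave a log2 fold change of -0.39 in Balb/c (95% confidence interval -0.81 to 0.04) and 0.16 in NSG (-0.18 to 0.51). The difference between hosts was -0.55 (SE 0.25, limma adjusted p = 0.4659). Exact permutation of shRNA labels within hosts, which assumes no ATRX KD effect in either host, gave a two-sided p = 0.0567.

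*Relb* encodes the partner of p52 (chromosome 7, 19606222 to 19629438, minus strand). Balb/c tumors had 26.9, 22.6, 23.3 and 29.1 FPKM with ATRX CT and 22.4, 22.1, 24.0 and 24.4 FPKM with ATRX KD. NSG tumors had 18.7, 28.5, 27.8, 20.1 and 22.2 FPKM with ATRX CT and 24.4, 28.6, 28.2, 26.7 and 27.2 FPKM with ATRX KD. Among ATRX KD tumors each NSG value was above each Balb/c value, by little at the border (24.4 FPKM in both groups as rounded). The log2 difference was 0.21 (SE 0.087, limma adjusted p = 0.2529; exact permutation test, two-sided p = 0.0159, the smallest possible with 126 arrangements being 0.00794). Among ATRX CT tumors the log2 difference was -0.12 (95% confidence interval -0.45 to 0.20).

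*Nfkbia* encodes IkappaB alpha, which retains NF-kappaB dimers in the cytoplasm (chromosome 12, 55489409 to 55492647, minus strand). It was at 139, 132, 130 and 107 FPKM in Balb/c ATRX CT and at 145, 130, 130 and 130 FPKM in Balb/c ATRX KD tumors. The NSG tumors had 124, 132, 126, 134 and 144 FPKM with ATRX CT and 140, 148, 156, 145 and 151 FPKM with ATRX KD. The NSG ATRX KD tumors were the highest group, and 4 of 5 were above all NSG ATRX CT tumors. The log2 fold change in NSG was 0.17 (SE 0.076, limma adjusted p = 0.1938; exact permutation test, two-sided p = 0.0159), and that in Balb/c was 0.08 (SE 0.13).

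*Tnfaip3* encodes A20, a ubiquitin-editing enzyme that ends NF-kappaB signaling (chromosome 10, 19000910 to 19015410, minus strand). Its levels were 16.9, 21.3, 16.3 and 19.9 FPKM in Balb/c ATRX CT and 27.4, 20.8, 15.7 and 32.9 FPKM in Balb/c ATRX KD tumors. NSG tumors had 15.8, 20.4, 20, 16.6 and 18.3 FPKM with ATRX CT and 18.6, 22.1, 20.9, 18.8 and 23.3 FPKM with ATRX KD. Both highest values were those of Balb/c ATRX KD mice 56 and 60, while mouse 59 of the same group had the lowest value of all. The longest transcript is 4422 nt. The slope of values with transcript length was 0.21 and 0.12 log2 units per doubling in mice 56 and 60, and -0.10 and -0.12 in mice 58 and 59. Its part in the spread of *Tnfaip3* was not tested. The log2 fold change for ATRX KD was 0.32 in Balb/c (SE 0.22) and 0.18 in NSG (SE 0.10, limma adjusted p = 0.2794).

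*Icam1* encodes an adhesion molecule that binds leukocyte integrins (chromosome 9, 21015960 to 21028797, plus strand, 7 exons). In the main fits it passed only in the host average added after the data were seen, where it was lower in NSG. In that average 1 of 10 members passed, beside 10.5% of all genes. *Icam1* was at 12.1, 13.2, 12.2 and 11.5 FPKM in Balb/c ATRX CT and at 15.4, 10.8, 11.2 and 15.1 FPKM in Balb/c ATRX KD tumors. It was at 8.58, 9.86, 10.4, 8.49 and 8.49 FPKM in NSG ATRX CT and at 8.88, 7.78, 9.16, 11.0 and 7.94 FPKM in NSG ATRX KD tumors. Of the 10 NSG tumors, 9 were below all 8 Balb/c tumors, and the exception, mouse 29 of NSG ATRX KD, lay between Balb/c mice 58 and 59. Among ATRX CT tumors the means were 9.15 ± 0.888 FPKM in NSG (SD, n = 5) and 12.2 ± 0.706 FPKM in Balb/c (SD, n = 4), without overlap. The log2 difference was -0.38 (95% confidence interval -0.62 to -0.14, limma adjusted p = 0.09578; exact permutation test, two-sided p = 0.00794, the smallest that 126 arrangements can give). Among ATRX KD tumors the means were 8.95 ± 1.29 FPKM in NSG (SD, n = 5) and 13.1 ± 2.47 FPKM in Balb/c (SD, n = 4), and the log2 difference was -0.50 (-0.82 to -0.17, limma adjusted p = 0.1077; exact permutation test, two-sided p = 0.0238). Averaged over both grafts the log2 difference was -0.44 (SE 0.086, limma adjusted p = 0.002569; exact permutation of hosts within grafts, two-sided p = 0.000189), 0.737 times the Balb/c level on the scale of FPKM + 1. For ATRX KD against ATRX CT it was 0.08 in Balb/c (95% confidence interval -0.25 to 0.42) and -0.03 in NSG (-0.27 to 0.20).

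Markers of several cell types that can express *Icam1* differed between hosts as well. Summed endothelial markers (8 genes) were at 54.6 to 86.6 FPKM in Balb/c ATRX CT and 75.9 to 181 FPKM in Balb/c ATRX KD tumors, and at 26.0 to 62.5 and 55.1 to 77.0 FPKM in the NSG groups. Summed NK cell markers (8 genes) were at 47.7 to 330 FPKM in Balb/c and 5.63 to 27.8 FPKM in NSG tumors, and the T cell sums given above differed too. Macrophage sums overlapped between hosts, at 1930 to 3850 FPKM in Balb/c and 1810 to 3890 FPKM in NSG tumors. After the group means were removed, the log2 level of *Icam1* was correlated with the mean log2 level of each marker list over the 18 tumors. The Pearson correlation was 0.49 with endothelial, 0.41 with T cell, -0.64 with NK cell and 0.02 with macrophage markers, all read from the same libraries. The part of these cells in the *Icam1* difference was not tested.

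Among the cytokines, *Tnf* encodes tumor necrosis factor (chromosome 17, 35199367 to 35202007, minus strand). It was at 5.59, 4.66, 6.38 and 4.19 FPKM in Balb/c ATRX CT and at 4.24, 5.47, 4.17 and 6.89 FPKM in Balb/c ATRX KD tumors. Tumors of NSG mice had 5.85, 5.83, 4.52, 6.36 and 5.10 FPKM with ATRX CT and 5.23, 3.79, 3.50, 5.23 and 3.48 FPKM with ATRX KD. Of the NSG ATRX KD tumors 3 of 5 were below all tumors of the other groups. In NSG the log2 fold change was -0.33 (SE 0.13, limma adjusted p = 0.1437; exact permutation test, two-sided p = 0.0635), and that in Balb/c was -0.01 (SE 0.19). Macrophage markers moved with it, since their median sum was 2240 FPKM in NSG ATRX KD and 3640 FPKM in NSG ATRX CT tumors, and neutrophil markers did too, with medians of 86.4 and 157 FPKM. The group-centred correlation of *Tnf* over 18 tumors was 0.56 with the mean log2 level of each list. Their part in the *Tnf* values was not tested.

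*Il6* encodes interleukin-6 (chromosome 5, 30013114 to 30019975, plus strand) and was the lowest member. Its levels were 2.34, 2.66, 3.78 and 1.02 FPKM in Balb/c ATRX CT, 1.23, 2.88, 2.56 and 1.48 FPKM in Balb/c ATRX KD, 1.80, 1.88, 2.08, 2.56 and 3.26 FPKM in NSG ATRX CT and 2.83, 1.44, 1.64, 1.93 and 1.34 FPKM in NSG ATRX KD tumors. All groups overlapped, no comparison passed the threshold, and the coefficient of variation within groups was 26.2% to 46.4%. The log2 fold change for ATRX KD was -0.16 in Balb/c (95% confidence interval -0.79 to 0.47) and -0.23 in NSG (-0.58 to 0.11).

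*Il1b* encodes interleukin-1 beta, made chiefly by myeloid cells (chromosome 2, 129364578 to 129371139, minus strand). It was at 33.3, 34.4, 43.4 and 23.6 FPKM in Balb/c ATRX CT and at 41.9, 46.2, 29.1 and 24.2 FPKM in Balb/c ATRX KD tumors. It was at 31.4, 10, 6.40, 41.5 and 41.6 FPKM in NSG ATRX CT and at 26.6, 11.7, 22.1, 29.3 and 15.7 FPKM in NSG ATRX KD tumors. The coefficient of variation was 64.8% in NSG ATRX CT, where mice 2 and 3 were far below the other 3 tumors, and 24.1% to 34.8% in the other groups. Mice 2 and 3 were also the NSG ATRX CT tumors with raised muscle markers, whereas NSG ATRX KD mice 29 and 30, with raised muscle markers too, were at 29.3 and 15.7 FPKM. NSG against Balb/c gave log2 differences of -0.65 among ATRX CT (95% confidence interval -1.77 to 0.48) and -0.74 among ATRX KD tumors (-1.36 to -0.13, limma adjusted p = 0.2048; exact permutation test, two-sided p = 0.0794). For ATRX KD the intervals were wide, with log2 fold changes of 0.05 (-0.49 to 0.60) in Balb/c and -0.04 (-1.11 to 1.02) in NSG. The antisense gene *Il1bos*, which overlaps *Il1b*, was at or below 0.213 FPKM in every tumor.

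Within groups *Nfkb2*, *Rela* and *Relb* varied together, *Il1b* varied against *Nfkb2* and *Relb* in both hosts, and the correlations of *Nfkb1* with these genes were weaker or of opposite sign in Balb/c. After the group means were removed from the log2 values, *Nfkb2* and *Relb* had a Pearson r of 0.86 over 18 tumors (Spearman rho 0.73), 0.97 over the 10 NSG and 0.42 over the 8 Balb/c tumors. *Nfkb1* and *Nfkb2* had an r of 0.78 (0.90 in NSG, 0.22 in Balb/c), *Nfkb2* and *Rela* 0.76, and *Rela* and *Tnfaip3* 0.71. *Il1b* had an r of -0.84 with *Nfkb2* (rho -0.80) and of -0.82 with *Relb* (rho -0.82). The negative sign was present in both hosts, with -0.88 in NSG and -0.63 in Balb/c for *Nfkb2*, and -0.84 and -0.77 for *Relb*. Without both tumors farthest from the median of *Nfkb2*, its r with *Il1b* was -0.78. *Nfkb1* had an r of 0.57 with *Relb* (0.83 in NSG, -0.43 in Balb/c), of 0.38 with *Rela* (0.64 in NSG, -0.19 in Balb/c) and of -0.68 with *Il1b* (-0.82 in NSG, 0.12 in Balb/c).

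These correlations are descriptions, since the points share library, depth and RNA composition, and 45 pairs of members were computed. Libraries differed in how their values rose with transcript length, by -0.15 to 0.21 log2 units per doubling of length. When this trend was removed, r was 0.82 for *Nfkb2* with *Relb*, -0.81 for *Nfkb2* with *Il1b*, 0.61 for *Nfkb1* with *Nfkb2* and 0.60 for *Rela* with *Tnfaip3*. It fell to 0.31 for *Nfkb1* with *Relb* and to 0.03 for *Nfkb1* with *Rela*. The mean log2 level of skeletal muscle markers also varied with these genes, with an r of 0.69 for *Nfkb1*, 0.53 for *Nfkb2* and -0.50 for *Il1b*. That of 7 B cell markers, which summed to 3.98 to 10.9 FPKM, had an r of -0.81 with *Relb* and 0.83 with *Il1b*. These sums overlapped between hosts although NSG mice lack B cells, so this list cannot be read as B cell content. *Il1b* had weak correlations with macrophage (-0.17) and neutrophil markers (0.29). The part of cell composition in these correlations was not tested.

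**Figure D3:**
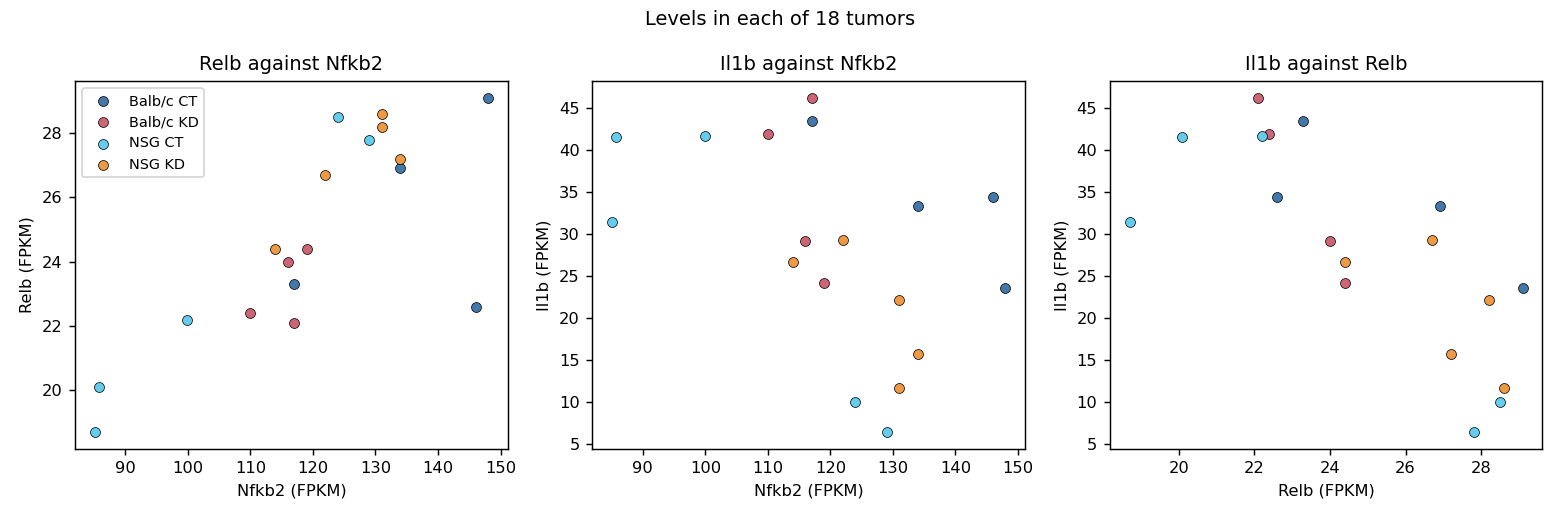
FPKM of *Relb* against *Nfkb2* (left), *Il1b* against *Nfkb2* (middle) and *Il1b* against *Relb* (right); points are the 18 tumors, colored by group, and axes do not start at 0. NSG ATRX CT mice 2 and 3 are the 2 points with the lowest *Il1b* (10 and 6.40 FPKM) and lie at 124 and 129 FPKM of *Nfkb2*.

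Over the 12181 genes that reached an average of 1 FPKM, those most alike in group-centred level over the 18 tumors were *Tmem161a* and *Chpf* for *Nfkb1* (r of 0.92 each), *Ddx27* and *Gpr108* for *Nfkb2* (0.94 and 0.93), *Med16* and *Zfp689* for *Rela* (0.97 and 0.94), and *Slc24a3* and *Bbs2* for *Relb* (0.91 and 0.89). For the inhibitors they were *Piwil4* and *Ell2* with *Nfkbia* (0.85 and 0.82) and *Bcar1* and *Fmnl2* with *Tnfaip3* (0.93 and 0.92). For the targets they were *Ripk3* and *Lyn* with *Icam1* (0.84 and 0.83), *Nostrin* and *March1* with *Tnf* (0.83 and 0.81), *Obfc1* and *Taz* with *Il6* (0.92 and 0.89), and *2210408I21Rik* and *Abracl* with *Il1b* (0.93 and 0.90). No member was among the 2 genes most like another member. Each value is the highest found in a search of 12181 genes over 18 tumors. No chance level was computed for such a highest value, and the length trend was not removed.

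Beyond the 10 members, 60 further genes of the pathway were listed by role, 10 subunits and inhibitors, 17 kinases and adaptors, 9 receptors and 24 other direct targets. In Balb/c, 0 of 59 tested passed for ATRX KD against ATRX CT (1 at an unadjusted p below 0.05, beside 4.14% of all genes). In NSG, 6 of 60 passed, beside 6.78% of all genes. *Sele*, the endothelial adhesion molecule E-selectin (log2 fold change 0.60, adjusted p = 0.01178), and *Mmp9*, a secreted matrix metalloproteinase (0.61, adjusted p = 0.01482), were higher in limma. *Sele* rested on few fragments, about 10 to 31 per tumor in NSG ATRX CT and 60 to 88 in NSG ATRX KD. Lower were *Il1a*, encoding interleukin-1 alpha (-0.96, adjusted p = 0.02152), *Birc2*, encoding cIAP1, a ubiquitin ligase of TNF receptor signaling (-0.54, adjusted p = 0.02796), *Nfkbid*, an atypical nuclear IkappaB (-0.50, adjusted p = 0.03683), and *Map3k7*, encoding the kinase TAK1 (-0.34, adjusted p = 0.01928). Endothelial marker sums were higher in NSG ATRX KD (median 65.7 FPKM) than in NSG ATRX CT tumors (30.9 FPKM), whereas those of macrophages (2240 against 3640 FPKM) and neutrophils (86.4 against 157 FPKM) were lower, and the part of these cells in the 6 differences was not tested. None of the 9 receptors passed in any of the 7 comparisons fitted. The count of 6 depended on single tumors: it was 10 without NSG mouse 3, 3 without mouse 1, 2 without mouse 4 or mouse 28, and 1 without mouse 30.

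Between hosts, 0 of 60 passed among ATRX CT tumors (13 at an unadjusted p below 0.05, beside 19.3% of all genes) and 5 of 59 among ATRX KD tumors, beside 3.64% of all genes. *Mmp9* was higher in NSG (log2 fold change 0.42, limma adjusted p = 0.04572). *Nfkbid* (-0.89, adjusted p = 0.005625), *Birc2* (-0.88, adjusted p = 0.003384), *Birc3*, encoding cIAP2 (-0.65, adjusted p = 0.0463), and *Il12b*, the p40 subunit of interleukin-12 (-0.55, adjusted p = 0.01584), were lower. *Il12b* rested on few fragments, about 4 to 19 per tumor in NSG ATRX KD and 26 to 50 in Balb/c ATRX KD. *Birc2* was at 6.63, 5.29, 5.13 and 5.30 FPKM in Balb/c ATRX KD and at 3.43, 2.26, 2.58, 2.33 and 2.30 FPKM in NSG ATRX KD tumors, without overlap. The NSG ATRX CT tumors, at 4.62, 3.55, 4.38, 4.99 and 3.51 FPKM, lay above all NSG ATRX KD tumors. *Nfkbid* was at 1.33, 0.867, 0.514, 0.850 and 0.534 FPKM in NSG ATRX KD tumors, against 1.15 to 1.71 FPKM in NSG ATRX CT and 1.87 to 2.66 FPKM in Balb/c ATRX KD. The count of 5 was 3 without any of mice 27, 28, 30, 58 or 60 and 2 without mouse 29. These comparisons share tumors, the NSG ATRX KD group entering both. In the difference of the ATRX KD effect between hosts, 0 of 59 passed (8 at an unadjusted p below 0.05, beside 10.3% of all genes).

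In the added average over both grafts, 9 of 59 passed between hosts, beside 10.5% of all genes. Higher in NSG were *Ccl5*, a chemokine (log2 fold change 0.87, limma adjusted p = 0.02848), and *Tab1*, a TAK1-binding adaptor (0.25). Lower were *Il1a* (-0.78), *Nfkbid* (-0.67, adjusted p = 3.9e-05), *Birc2* (-0.51), *Il12b* (-0.43) and *Birc3* (-0.39) as the largest, with 2 others at smaller differences. The count of 9 was 5 without any of mice 29, 43, 56 or 60. In the average of ATRX KD against ATRX CT over both hosts, where 2.37% of all genes passed, 0 of 10 members and 3 of 59 of these genes did, *Ier3* (0.46) higher and *Il1a* (-0.76) and *Map3k7* (-0.32) lower. The 3 calls rested on single tumors, with 0 left without mouse 4, 28 or 43 and 1 without mouse 1, 29, 30 or 58.

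**Figure D4:**
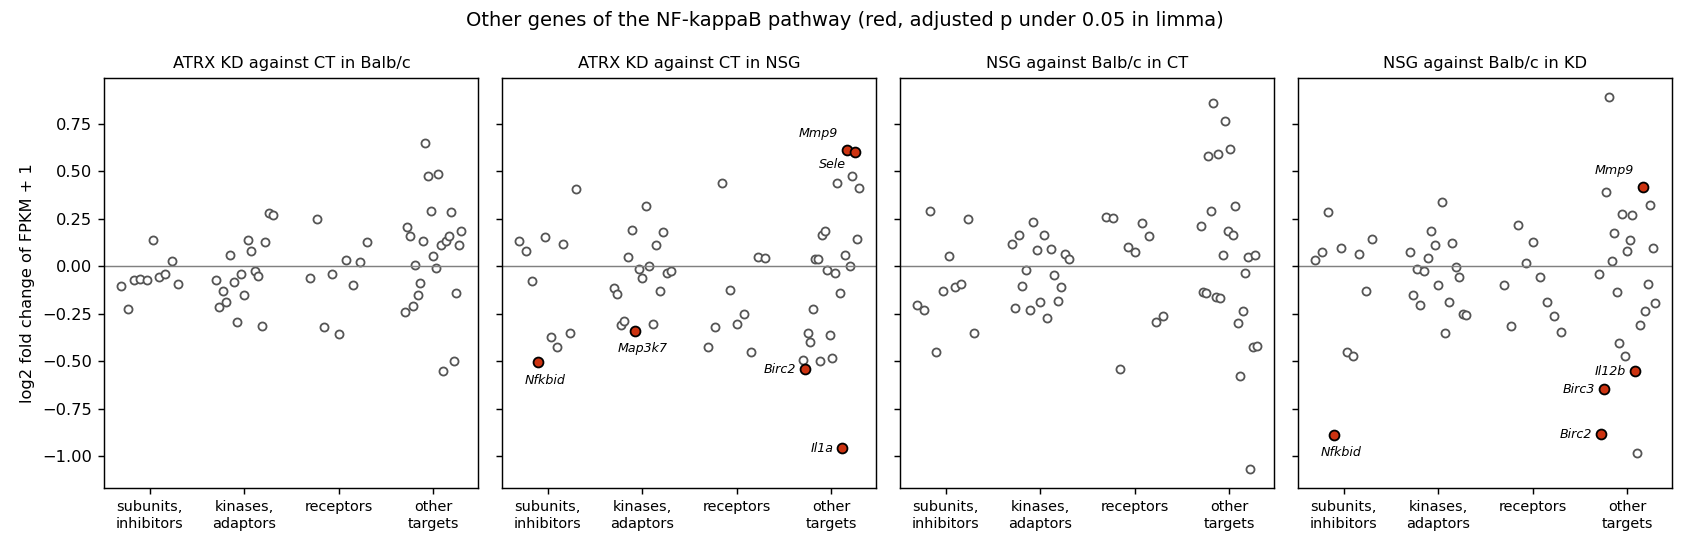
Log2 fold change of FPKM + 1 (vertical axis) of the 60 further pathway genes by role (horizontal axis) in the 4 comparisons; each point is a gene, and red points with names passed an adjusted p below 0.05 in limma. The panel of Balb/c ATRX KD and that of NSG against Balb/c ATRX CT have no red point, and *Birc2* and *Nfkbid* are red and below 0 in both other panels.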

How the data were processed

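Total RNA of 18 K7M2 tumors was ribo-depleted, and stranded libraries were sequenced as paired reads of 75 bp. The authors aligned the reads to mm10 with STAR (2.6.0c), dropped duplicates from PCR and reads of quality under 20, and used Cufflinks (2.2.1) on RefSeq genes; the submitters' processing notes also name DESeq, which was not used here. The deposited matrix holds log2 (FPKM + 1) values, per the file headers and values one column per tumor (20970 entries, 92 of them spike-ins, set aside). The authors' deposited annotation gave coordinates and transcript lengths. Depth was estimated from the steps between low values, as the depth that put the largest share of them within 0.1 of whole fragments. This share was 36.4% to 45.0%, beside 20% by chance at a depth fixed beforehand, so no count test was run. The chance level of the largest share was not computed.

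Tumors were grouped by their labels, and mouse numbers do not pair groups. Genes averaging 0.1 FPKM or more were fitted with limma (3.58.1, trend, R 4.3.3) on the groups compared, or on all 4 groups for the host difference and both averages. The pseudocount was 1 and p-values were adjusted by Benjamini-Hochberg over all genes tested. The unit that limma needs, a log scale, is that of the deposited values. Tested on simulated data, changes of 2 log2 units in 200 genes were recovered for 94.5% (ATRX KD in Balb/c), 99.0% (ATRX KD in NSG), 97.5% (hosts, ATRX CT) and 99.0% (hosts, ATRX KD) of them, among 14654 to 14828 genes. Unchanged genes called were 12, 10, 9 and 16 in the same order. The changed genes were drawn from those with a mean log2 above 2. Smaller changes, such as those of the members, were not simulated, so this says nothing about how often they would be found. Exact permutation tests were two-sided, over 70 (Balb/c), 252 (NSG) and 126 (hosts) arrangements, so the smallest p-values were 0.0286, 0.00794 and 0.00794. No source says that tumors of a group came from separate experiments, and p-values measure the spread between mice. Alternatives changed the pseudocount, scaling, filter, call rule, library weights (with a robust prior), fit, transcript length trend and tumors. Genes were named by rule: all 10 members, *Atrx*, the further pathway genes past the threshold (at most 5 per direction with the largest fold changes) and the 2 genes most like each member. The members, gene lists and tests were chosen with earlier results of these data known.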

Additional observations from a re-analysis of the deposited data

Results flagged for a closer look

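Single tumors were compared with the rest of their group for the 10 members and *Atrx*, in 44 groups of 4 or 5 tumors, by the gap of the highest or lowest value to its neighbour relative to the range. Chance flags about 1 in 20 groups, 2.2 of these 44, and 2 were found. *Nfkbia* was higher in mouse 56 of Balb/c ATRX KD, with a log2 (FPKM + 1) of 7.19 against 7.03 in each of the other 3 tumors, a difference of 145 to 130 FPKM. *Atrx* was higher in mouse 27 of NSG ATRX KD, with 4.12 against 3.24 to 3.30 in the other 4 tumors. Values in the library of mouse 27 rose with transcript length, by 0.12 log2 units per doubling. The other libraries of this group had slopes of -0.08 to -0.03. The *Atrx* transcript is 10244 nt long, and the part of this slope in the value of mouse 27 was not tested. In that tumor *Nfkb1*, *Nfkb2* and *Relb* were at 42.8, 131 and 28.6 FPKM, within the range of the other NSG ATRX KD tumors or less than 1 FPKM above it. Without mouse 27 the log2 fold change of *Atrx* in NSG was -0.91 (limma adjusted p = 0.02682), and 0 members passed the threshold in that comparison.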

How the results depend on the processing

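No paired analysis was possible because the groups share no mouse numbers. Of 553 alternative values of the 58 log2 fold changes with all tumors or without Balb/c mice 45 and 60, which had the highest keratinocyte sums in Balb/c (84.0 and 13.9 FPKM), 508 kept direction and side of the threshold, 17 newly passed, 1 no longer passed and 27 reversed; of 666 values without 1 tumor, 617 kept both, 5 newly passed and 44 reversed. Reversed values had a main size of at most 0.17 with all tumors. *Icam1* stayed lower in NSG in the host average in 27 of 27 settings (log2 fold change -0.48 to -0.37, limma adjusted p = 0.001482 to 0.01049). These settings reuse the same tumors, and requiring a fold change of at least 2 leaves both values unchanged. With that requirement 0 members passed.

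Library weights with a robust prior gave the largest changes. Members past the threshold became 5 in NSG ATRX KD (*Nfkb1*, *Nfkb2*, *Relb*, *Tnfaip3* higher, *Tnf* lower), 3 in hosts with ATRX CT, 4 in the host difference, 2 in the host average and 1 in the ATRX KD average, the further pathway genes 23, 13 (hosts, ATRX CT), 12 (hosts, ATRX KD), 8, 17 and 15, and all genes 22 (Balb/c ATRX KD), 5414, 3290, 1778, 1985, 3274 and 2517. Weights and prior were changed together, and the cause was not tested. In the fit of all 4 groups *Icam1* passed for hosts with ATRX KD (-0.50, limma adjusted p = 0.02306), 1 member against 0, with 3 pathway genes for hosts with ATRX CT. Pathway genes became 3 (pseudocount 0.1) and 1 (quantile normalization) for hosts with ATRX CT, 3 for hosts with ATRX KD (mean of at least 1 FPKM, or without Balb/c mice 45 and 60), 5 in the host average without those mice, 11 in NSG without the length trend, and 0 with a fold of at least 2 (NSG, hosts with ATRX KD, both averages). All genes became 0 (Balb/c ATRX KD) and 275 and 328 (hosts) at a mean of at least 1 FPKM, 68, 212, 204, 213 and 18 with a fold of at least 2, 16 and 828 in the fit of all groups, and 1743 and 689 (NSG, ATRX KD average) without the length trend.

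Without 1 tumor, members past the threshold ranged from 0 to 1 in NSG ATRX KD and hosts with ATRX CT and 1 to 2 in the host average, each higher count being *Nfkb1* without NSG mouse 3 (0.51, -0.53 and -0.28). Pathway genes ranged from 1 to 10 in NSG, 0 to 4 and 2 to 5 between hosts, 5 to 13 in the host average and 0 to 4 in the ATRX KD average, and all genes from 144 to 2080 in NSG and from 276 to 975 and 338 to 593 between hosts.

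Reversed with library weights were *Nfkb1* (-0.05 in Balb/c, 0.03 hosts with ATRX KD), *Nfkbia* (-0.02, -0.01 hosts with ATRX CT), *Tnfaip3* (0.06 hosts with ATRX KD, -0.09 host difference), *Il6* (0.06 in Balb/c, 0.02 hosts with ATRX CT) and *Icam1* (-0.07 in Balb/c, 0.06 in NSG, -0.14 host difference). For hosts with ATRX CT, *Il6* reversed with other scalings and pseudocount (0.00 to 0.04), *Tnfaip3* with quantile normalization (0.00), *Nfkbia* (-0.09), and, without the length trend, *Nfkbia* (-0.06), *Tnfaip3* (0.11) and *Tnf* (-0.02), with *Il6* at 0.04 for hosts with ATRX KD (quantile) and -0.01 in the host difference (length trend). Without Balb/c mice 45 and 60 *Tnf* was at -0.00, *Nfkbia* -0.02 and *Tnfaip3* 0.01 (hosts, ATRX CT), *Nfkb1* -0.05 and *Icam1* -0.01 (Balb/c), and *Il6* -0.08 (host difference). Without 1 tumor the ranges that crossed 0 were, in Balb/c, *Nfkb1* -0.04 to 0.09, *Nfkbia* -0.00 to 0.12, *Tnf* -0.14 to 0.08, *Il6* -0.39 to 0.02 and *Il1b* -0.10 to 0.21; in NSG, *Icam1* -0.10 to 0.01 and *Il1b* -0.43 to 0.20; for hosts with ATRX CT, *Nfkbia* -0.02 to 0.10, *Tnfaip3* -0.08 to 0.04, *Tnf* -0.00 to 0.17 and *Il6* -0.24 to 0.17; with ATRX KD, *Nfkb1* -0.08 to 0.03 and *Il6* -0.22 to 0.05; and in the host difference, *Tnfaip3* -0.02 to 0.32, *Il6* -0.16 to 0.25 and *Il1b* -0.15 to 0.49. Depth was lowest for *Il6*, with 20 to 78 fragments per tumor, and its part in the spread of *Il6* was not tested.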
